A study of Mus musculus with 8 samples.

Results

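The genes described here mark intestinal differentiation and secretion, and they were read in RNA from mixed co-cultures of mouse colon cancer cells and splenocytes. The set holds 10 genes chosen by name, of 52636 gene IDs in the deposited tables. They are the transcription factors Cdx1, Cdx2, Hnf4a, Klf5 and Elf3, the cytoskeletal gene Vil1, and the secretory and mucin genes Agr2, Muc1, Muc2 and Tff3. Of the 10, 6 reached 1 TPM (a transcript level corrected for length and scaled to the same total in each library) in at least 4 of 8 libraries and were tested, among 11433 genes tested in all. The genes were read as colon lineage traits of the metastasis-derived cells. The comparison asked whether they differed between cancer cells that had and had not taken up membrane from T cells. None of the 8 libraries is of normal colon, primary tumour or the starting organoids, so traits kept or lost cannot be told.

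Both groups were co-cultures on a C57BL/6 background. In 4 libraries, splenocytes were kept with trogocytic colon cancer cells, and in 4 control libraries with non-trogocytic ones. Trogocytosis is the transfer of membrane pieces and their proteins between cells. In both groups the cancer cells grew from organoids with a tdTomato reporter, were injected into the spleen, had metastasized to the liver, and were sorted on tdTomato and on the T cell protein CD4. In both, they were mixed for 5 days with splenocytes of syngeneic mice that carry an Actin-GFP reporter, at 1 cancer cell to 50 splenocytes. The labels do not give the animals' age, the genotype of the organoids, or the animals behind each replicate. The p-values therefore reflect the variation among 8 libraries, and part or all of it may be technical. RNA came from the whole mixture, so fewer cells of a type and less RNA per cell cannot be told apart.

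The intestinal epithelium renews itself from stem cells that give rise to absorptive cells and to secretory cells such as goblet, Paneth and enteroendocrine cells. CDX1 and CDX2 are homeobox factors that specify intestinal identity, and HNF4A is a nuclear receptor that works with CDX2 at genes of mature enterocytes. Goblet cells release the gel-forming mucin MUC2 and the trefoil peptide TFF3, and AGR2 is a protein of the endoplasmic reticulum that mucin folding depends on in the mouse intestine.

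Aligned bases came to between 1.39 and 1.84 Gb in a library, so that 1 TPM of a transcript of 2 kb rests on 5.83 to 8.45 read pairs. Epithelial and leukocyte markers were above 0 in every library. The sum of Epcam, Krt8, Krt18, Krt19 and Cdh1 was 4537 to 5731 TPM in trogocytic and 2780 to 7544 TPM in non-trogocytic co-cultures. The mean log2(TPM + 1) of these 5 genes, the epithelial index, was 0.094 ± 0.30 higher in trogocytic co-cultures (SE; two-sided exact permutation p = 0.8, with 0.0286 the smallest possible). The difference was -0.093 when non-trogocytic replicate 1 was left out and -0.034 when replicate 3 of that group was. The sum of 5 leukocyte genes was 625 to 1499 TPM in trogocytic and 437 to 2161 TPM in non-trogocytic co-cultures, highest in replicate 1 of each group. Macrophage and monocyte markers, 7 of 7 above 0 in at least 1 library and 6 in all 8, summed to 1605 to 5082 TPM in trogocytic and 3215 to 14293 TPM in non-trogocytic co-cultures. Most of this sum was the myeloid gene Lyz2, at 1175 to 3846 TPM in trogocytic and 2636 to 12057 TPM in non-trogocytic co-cultures. The cholangiocyte list summed to 681 to 1218 TPM in trogocytic and 1986 to 2728 TPM in non-trogocytic co-cultures, mostly as the secreted protein gene Spp1, which macrophages and tumours also use and which was 1 of the 6 genes called (log2 fold change -1.52 ± 0.21, limma adjusted p = 0.0483). Its marker Sctr was listed at 0 in all libraries. The part of these cells in the values below was not tested. The first principal component of all tested genes held 23.3% of the variance and had its highest scores in the same pair of libraries.

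One library held transcripts of liver. All 8 hepatocyte markers, among them albumin (Alb, 36.5 TPM) and the apolipoprotein gene Apoa2 (211 TPM), were above 0 in non-trogocytic replicate 3, where they summed to 370 TPM. All 8 were listed at 0 in the other 7 libraries. The fibroblast and stellate list, with 5 of 6 genes above 0 somewhere, summed to 0 to 0.185 TPM in trogocytic and 0.560 to 33.4 TPM in non-trogocytic co-cultures, again highest in non-trogocytic replicate 3. The part of these cells in the results below was not tested, and values without that library are given where it turns a sign or holds a gene alone.

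None of the 6 tested genes was called by limma at an adjusted p below 0.05, against 0.0525% of all genes tested. None had an unadjusted p below 0.05, against 4.59% of all genes, and in none did the groups fail to overlap, against 2.68% of all genes, or 1.3% lower in trogocytic co-cultures. The fold change, trogocytic over non-trogocytic on the log2(TPM + 1) scale, was below 0 for 5 of the 6, against 49.3% of all genes tested, and its median over the 6 was -0.40, against 0.0070 over all genes tested.

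**Figure D1:**
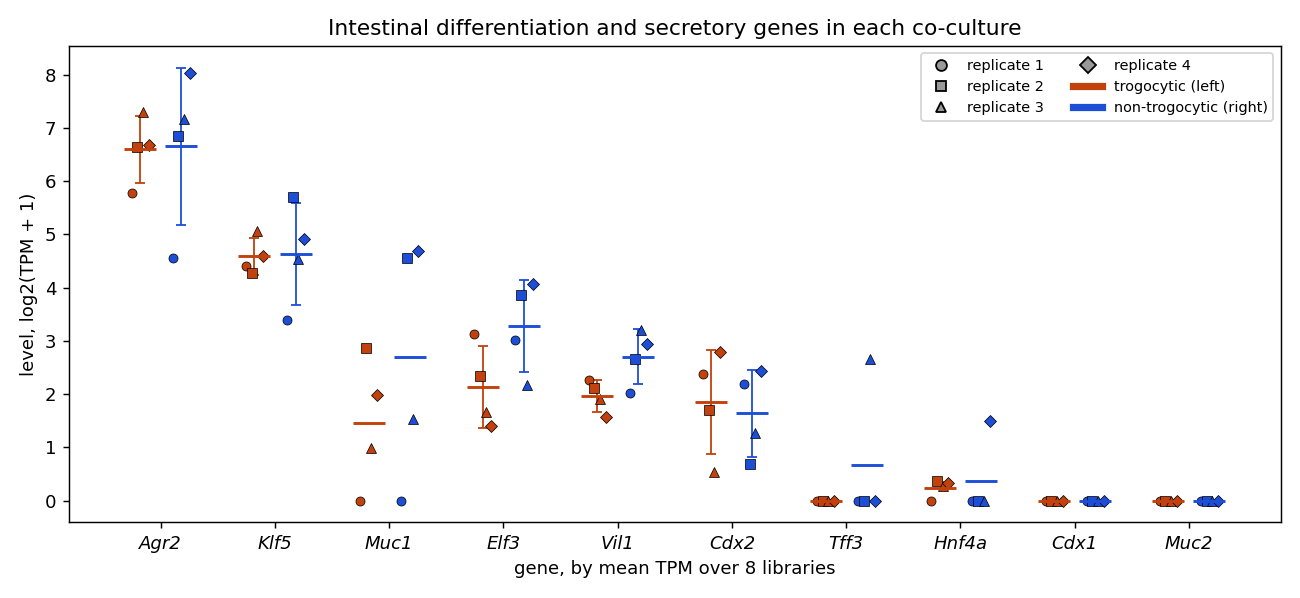
Level of each gene as log2(TPM + 1) in 4 trogocytic (orange, left) and 4 non-trogocytic (blue, right) co-cultures, with symbols for replicates, a line at the mean, and the SD for the 5 genes above 0 in all 8 libraries. Agr2 is the highest gene in every library, Cdx1 and Muc2 lie at 0 in all 8, and the groups overlap for every gene.

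Cdx2 (ENSMUSG00000029646.3, chromosome 5, 147300805 to 147307270, minus strand) was detected in every library at a low level, and Cdx1 (ENSMUSG00000024619.8, chromosome 18) was listed at 0 in all 8. Cdx2 had 4.18, 2.27, 0.457 and 5.88 TPM in trogocytic replicates 1 to 4, against 3.53, 0.603, 1.40 and 4.41 TPM in the non-trogocytic ones. Both groups held libraries below 1 TPM and above 4 TPM, and they overlapped throughout. As Cdx2 has 1 annotated transcript, its depth could be estimated, at 3.4 to 42 read pairs per trogocytic library and 4.9 to 34 per non-trogocytic one. The log2 fold change was 0.21 ± 0.61 (SE, n = 4 per group, 95% interval -1.13 to 1.56, limma adjusted p = 0.99975), and it was -0.098 without trogocytic replicate 4 and -0.11 with non-trogocytic replicate 2 left out. The 95% interval includes changes of more than 1 on the log2 scale in either direction.

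Hnf4a (ENSMUSG00000017950.16, chromosome 2, 163506808 to 163572910) stood under the filter in both groups. It was listed at 0, 0.289, 0.215 and 0.256 TPM in trogocytic replicates 1 to 4, and at 0, 0, 0 and 1.83 TPM in the non-trogocytic ones. Only non-trogocytic replicate 4 passed 1 TPM. The library with hepatocyte transcripts listed Hnf4a, which hepatocytes also use, at 0. With no filter on low values its log2 fold change was -0.13 ± 0.34 (limma adjusted p = 0.943). The antisense gene Hnf4aos, whose exons lie in its introns, stood at a mean of 0.356 TPM, and the strand setting of the counting is not given in the sources used here.

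Klf5 (ENSMUSG00000005148.7, chromosome 14, 99298691 to 99313405), a zinc finger factor of proliferating crypt cells, was the highest of the 5 factors. It had 20.2, 18.4, 32.5 and 23.3 TPM in trogocytic replicates 1 to 4, against 9.52, 50.9, 22.3 and 29.1 TPM in the non-trogocytic ones. All 4 trogocytic values lay inside the non-trogocytic range, whose ends were replicates 1 and 2. The group means were 23.6 ± 6.27 TPM in trogocytic and 27.9 ± 17.3 TPM in non-trogocytic co-cultures (SD, n = 4 each). The log2 fold change was -0.049 ± 0.46 (95% interval -1.07 to 0.97, limma adjusted p = 0.99975), and its sign turned in 4 of 8 fits that left out 1 library, up to 0.30 without non-trogocytic replicate 2.

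Elf3 (ENSMUSG00000003051.13, chromosome 1, 135253575 to 135258568), an ETS factor of epithelial differentiation, had the smallest p of the set and ranked 787 of 11433 genes by p. It had 7.79, 4.05, 2.16 and 1.64 TPM in trogocytic replicates 1 to 4, against 7.06, 13.6, 3.53 and 15.9 TPM in the non-trogocytic ones. The 2 highest libraries were non-trogocytic and the 2 lowest trogocytic, while the other 4 were interleaved. Means were 3.91 ± 2.78 TPM in trogocytic and 10.0115 ± 5.71 TPM in non-trogocytic co-cultures (SD, n = 4 each). The log2 fold change was -1.15 ± 0.58 (95% interval -2.44 to 0.14, unadjusted p = 0.0748, limma adjusted p = 0.99975), and it ran from -1.52 to -0.89 with 1 library left out. The antisense gene Gm26642, which shares exonic bases with Elf3, averaged 0.399 TPM.

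Vil1 (ENSMUSG00000026175.12, chromosome 1, 74409376 to 74435559) encodes villin, which bundles actin in the microvilli of the brush border. It had 3.78, 3.34, 2.77 and 1.95 TPM in trogocytic replicates 1 to 4, against 3.05, 5.30, 8.25 and 6.67 TPM in the non-trogocytic ones. Non-trogocytic replicates 2 to 4 lay above every trogocytic library, and replicate 1 lay inside the trogocytic range. Means were 2.96 ± 0.787 TPM in trogocytic and 5.82 ± 2.21 TPM in non-trogocytic co-cultures (SD, n = 4 each), with a log2 fold change of -0.74 ± 0.45 (95% interval -1.73 to 0.25, limma adjusted p = 0.99975). Vil1 and Usp37, a gene transcribed in the opposite direction, share 49 of the 3551 exonic bases of Vil1. Usp37 averaged 61.5 TPM over the 8 libraries, so reads in that stretch are uncertain.

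Agr2 (ENSMUSG00000020581.11, chromosome 12, 35992907 to 36004087) was the highest gene of the set in each library, and its mean level lay at percentile 87.3 of all tested genes. It had 53.7, 98.5, 156 and 101 TPM in trogocytic replicates 1 to 4, against 22.6, 114, 142 and 261 TPM in the non-trogocytic ones. As for Klf5, the trogocytic values lay inside the non-trogocytic range, and replicate 1 was the lowest of each group. Means were 102 ± 41.9 TPM in trogocytic and 135 ± 98.4 TPM in non-trogocytic co-cultures (SD, n = 4 each), with a log2 fold change of -0.056 ± 0.63 (95% interval -1.45 to 1.34, limma adjusted p = 0.99975). The sign turned in 4 of 8 fits that left out 1 library. Among non-trogocytic libraries, leaving out replicate 4 gave 0.40, leaving out replicate 1, the lowest in Agr2, gave -0.75, and leaving out replicate 3, the library with hepatocyte transcripts, gave 0.11.

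Muc1 (ENSMUSG00000042784.9, chromosome 3, 89229057 to 89233381), which encodes a transmembrane mucin of the apical surface, varied most between libraries among the tested genes. It had 0, 6.27, 0.988 and 2.97 TPM in trogocytic replicates 1 to 4, against 0, 22.5, 1.90 and 24.7 TPM in the non-trogocytic ones. Replicate 1 was listed at 0 in both groups, and non-trogocytic replicates 2 and 4 lay above all other libraries. The log2 fold change was -1.23 ± 1.06 (95% interval -3.58 to 1.11, limma adjusted p = 0.99975). Among non-trogocytic libraries, leaving out replicate 1 gave -2.13, leaving out replicate 4 gave -0.57, and leaving out replicate 2 gave -0.61. Without trogocytic replicate 1 it was -0.75.

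The gel-forming mucin and the trefoil peptide of goblet cells were almost undetected. Muc2 (ENSMUSG00000025515.15, chromosome 7, 141690340 to 141754693) was listed at 0 in all 8 libraries. Tff3 (ENSMUSG00000024029.4, chromosome 17, 31125306 to 31129646) was listed at 0 in the 4 trogocytic libraries and in non-trogocytic replicates 1, 2 and 4, and at 5.34 TPM, or about 10.8 read pairs, in non-trogocytic replicate 3. That is the library with hepatocyte transcripts, and without it Tff3 was listed at 0 throughout. With no filter on low values, its log2 fold change was -0.67 ± 0.59 (limma adjusted p = 0.837).

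**Figure D2:**
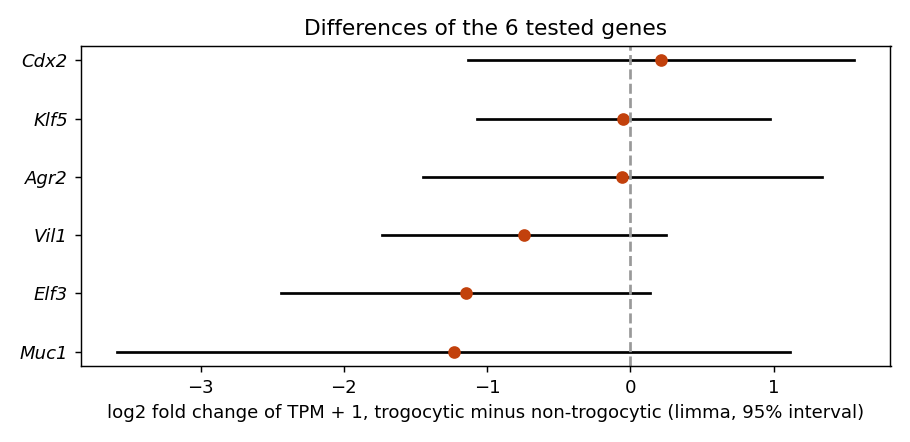
Log2 fold change of TPM + 1, trogocytic minus non-trogocytic, for the 6 tested genes (points), with the 95% interval from limma (lines). Every interval includes 0; the widest is that of Muc1, from -3.58 to 1.11.

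By mean level over the 8 libraries the order was Agr2 (119 TPM), Klf5 (25.8 TPM), Muc1 (7.42 TPM), Elf3 (6.96 TPM), Vil1 (4.39 TPM) and Cdx2 (2.84 TPM). Agr2 was above Klf5 in 8 of 8 libraries, by 2.01 ± 0.26 (SE) on the log2 scale, and Klf5 above Muc1 in 8 of 8, by 2.53 ± 0.52. Each had an exact sign permutation p of 0.0078, the smallest that 8 libraries allow (two-sided, adjusted p = 0.0195 over 5 neighbouring pairs). The pairs were taken from the order of the means in these same libraries, so the p-values cannot test that order and describe it only. For Muc1 and Elf3, Elf3 and Vil1, and Vil1 and Cdx2, the exact sign permutation adjusted p was 0.352, 0.332 and 0.286, likewise as a description. On the log2 scale the order of Muc1 and Elf3 was the reverse of that by mean TPM. The mean difference, Muc1 minus Elf3, was -0.63 ± 0.57 (SE), with Muc1 above in 4 of 8 libraries.

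Levels were also set against epithelial RNA. As a percentage of the geometric mean of the 5 epithelial genes in the same library, Agr2 stood at 24.4 ± 11.2% in trogocytic and 32.3 ± 22.7% in non-trogocytic co-cultures (SD, n = 4 each). Klf5 stood at 5.66 ± 1.87% in trogocytic and 6.26 ± 1.93% in non-trogocytic co-cultures. Elf3 stood at 0.947 ± 0.723% in trogocytic and 2.33 ± 0.931% in non-trogocytic co-cultures, while Cdx2 stood at 0.741 ± 0.530% in trogocytic and 0.705 ± 0.539% in non-trogocytic co-cultures. With every gene scaled this way, limma called none of the 6, and the fold changes kept their signs, at -1.22 for Elf3, -1.16 for Muc1, -0.82 for Vil1, -0.15 for Agr2, -0.13 for Klf5 and 0.071 for Cdx2.

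Agr2 was low where leukocyte transcripts were high. Over the 8 libraries, its log2(TPM + 1) had a Pearson's r of -0.87 with the mean log2(TPM + 1) of Ptprc, Coro1a, Laptm5, Cd53 and Ptpn6 (exact permutation p = 0.0019, adjusted p = 0.0232 over 12 relations of the 6 genes with the leukocyte and epithelial indices). Spearman's rho was -0.86 (exact permutation p = 0.0107, adjusted p = 0.103). Without the 2 libraries farthest from the median of the leukocyte index, r was -0.77. All genes of a library share 1 TPM total, and the part of this in the relation was not tested.

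No other of the 12 relations passed after adjustment. Klf5 had an r of 0.80 with the epithelial index (exact permutation p = 0.0232, adjusted p = 0.0952; rho = 0.62, exact p = 0.115), and r was 0.051 without the 2 farthest libraries, so the relation rests on those. Muc1 had an r of 0.77 with it (exact permutation p = 0.0238, adjusted p = 0.0952; rho = 0.83, exact p = 0.0172), and 0.53 without them. Cdx2 had an r of -0.17 with the epithelial index (exact permutation p = 0.683; rho = 0.21, exact p = 0.619) and 0.57 without the 2 farthest libraries. Among the 15 pairs of the 6 genes none passed, and the smallest p was that of Agr2 and Klf5 (r = 0.73, exact permutation p = 0.0445, adjusted p = 0.340; rho = 0.76, exact p = 0.0368, adjusted p = 0.551), whose r was 0.41 without the 2 libraries farthest in Agr2.

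**Figure D3:**
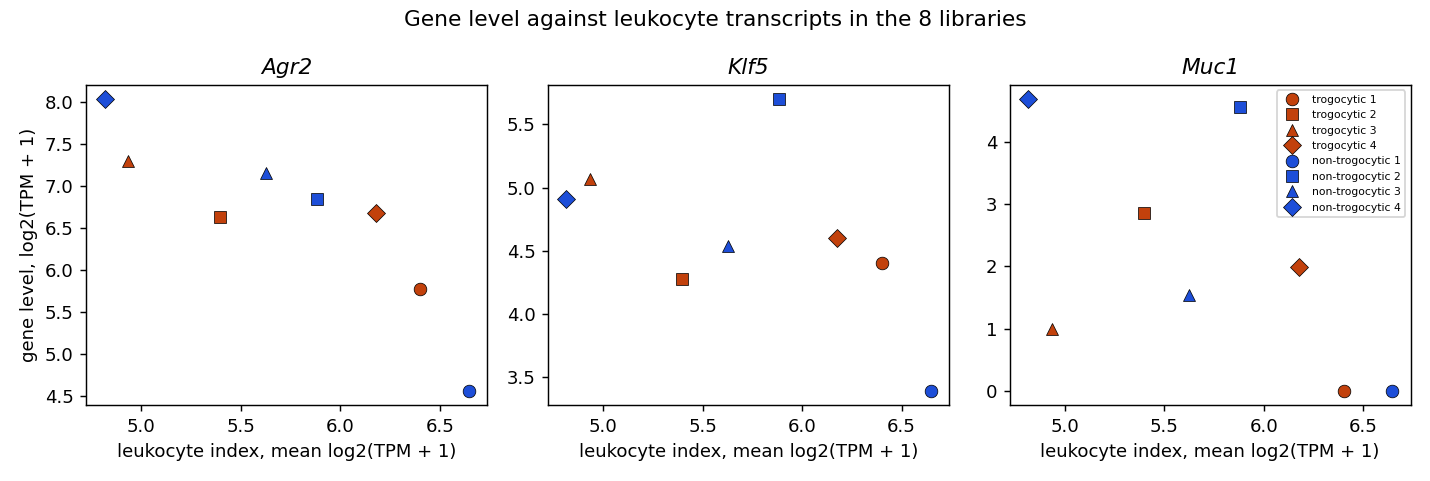
Level of Agr2, Klf5 and Muc1 as log2(TPM + 1) against the leukocyte index, the mean log2(TPM + 1) of 5 leukocyte genes, in the 8 libraries (orange trogocytic, blue non-trogocytic, symbols for replicates). Agr2 falls along the axis with r = -0.87, and non-trogocytic replicate 1 has the highest leukocyte index and the lowest Agr2 level.

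Of all tested genes, those whose log2 level ran most closely with Agr2 over the 8 libraries were Snrpg (r = 0.97), Eif2b1 (r = 0.97) and Nr2c1 (r = 0.96). Those nearest to Klf5 were Chchd4 (r = 0.99), Ndc1 (r = 0.97) and Dusp6 (r = 0.96), and those nearest to Muc1 were Tspan1, Gm14148 and Hspd1 (r = 0.97 each). These are the extremes of a search through all tested genes over 8 points, and are given as a description.

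The sequences before the starts of 4 of these genes are shown because they include the highest gene, Agr2, the lineage factor Cdx2, and the genes with the largest fold changes, Elf3 and Muc1. RefSeq promoters (GRCm38.p6, the build of the files) matched 7 of the 10 genes. Each sequence runs 5′ to 3′ in the direction of its gene, from 250 bases before the RefSeq start to the base before the RefSeq start, cut short where a GENCODE exon of that gene begins earlier. Capitals mark matches, on either strand, to TTTATG (CDX), CAAAGTCCA (HNF4), AGGAAG (ETS) or CCNCNCCC (KLF), and neighbouring matches can overlap. The windows are chr12:35992675-35992906 for Agr2 (plus strand), chr5:147307271-147307499 for Cdx2 (minus), chr1:135258569-135258722 for Elf3 (minus) and chr3:89228806-89229055 for Muc1 (plus).
Agr2: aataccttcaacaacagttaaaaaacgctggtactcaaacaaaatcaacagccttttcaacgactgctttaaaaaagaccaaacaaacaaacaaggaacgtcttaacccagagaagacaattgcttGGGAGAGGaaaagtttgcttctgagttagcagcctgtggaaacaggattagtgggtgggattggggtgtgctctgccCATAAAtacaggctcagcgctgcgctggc
Cdx2: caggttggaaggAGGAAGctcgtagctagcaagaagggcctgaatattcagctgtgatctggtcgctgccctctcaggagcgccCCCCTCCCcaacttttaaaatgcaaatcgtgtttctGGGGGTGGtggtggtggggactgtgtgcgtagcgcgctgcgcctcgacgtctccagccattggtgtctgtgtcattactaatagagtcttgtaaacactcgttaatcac
Elf3: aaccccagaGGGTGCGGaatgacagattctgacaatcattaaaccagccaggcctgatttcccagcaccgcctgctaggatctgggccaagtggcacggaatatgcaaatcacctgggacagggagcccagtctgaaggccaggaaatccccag
Muc1: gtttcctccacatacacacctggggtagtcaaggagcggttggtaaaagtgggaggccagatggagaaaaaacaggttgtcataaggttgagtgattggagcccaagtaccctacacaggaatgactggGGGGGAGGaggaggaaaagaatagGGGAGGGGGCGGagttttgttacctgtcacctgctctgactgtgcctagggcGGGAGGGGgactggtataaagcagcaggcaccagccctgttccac

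The CDX letters, found in 10.8% of 32851 promoter windows of 250 bases, were present in Agr2 and in none of the other 6 matched genes. In Agr2 they stood as CATAAA on the reverse strand from 47 bases before the RefSeq start. The GENCODE gene begins at 35992907, inside the window that ends at 35992924, so the match lies nearer to the GENCODE start. The HNF4 letters, found in 0.38% of windows, were in none of the 7. The ETS letters, in 29.5% of windows, were in those of Cdx2, Vil1, Muc2 and Hnf4a, and the KLF letters, in 45.9% of windows, were in those of all 7. The KLF matches numbered 7 in Vil1, 4 in Muc1, 2 in Cdx2 and 1 each in Elf3, Muc2 and Agr2. Hnf4a had separate windows. Its window starting at 163506607 held the ETS match and 1 KLF match, and its window starting at 163546905 held 5 KLF matches and no ETS match. A match is a string of letters, not a bound site.

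Related genes were read from 7 lists with 160 genes in all, leaving out the 10 above. Of these, 78 were tested and 38 were listed at 0 in all 8 libraries. Of all 52636 gene IDs, 30423 were listed at 0 in all 8. Limma called none of the 78 (smallest adjusted p = 0.926), and 3 had an unadjusted p below 0.05, or 3.85%, against 4.59% of all genes tested. In 3 the groups did not overlap, or 3.85%, against 2.68% of all genes tested. The median log2 fold change was -0.039.

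One list joined intestinal surface genes with CDX or HNF4 target genes. Of its 22 genes, 11 were above 0 in every library. Another count, of tested genes, was 12, with 7 fold changes above 0 and 5 below. Lgals4, which encodes a galectin of intestinal epithelium, had 960, 919, 773 and 1206 TPM in trogocytic libraries, against 516, 1278, 573 and 1189 TPM in non-trogocytic ones. Tspan8, a tetraspanin of gut epithelium and its tumours, averaged 638 ± 190 TPM in trogocytic and 606 ± 158 TPM in non-trogocytic co-cultures (SD, n = 4 each). Abcb1a, a drug efflux pump, averaged 5.39 ± 0.744 TPM in trogocytic and 2.85 ± 0.925 TPM in non-trogocytic co-cultures. It was 1 of the 3 genes without overlap, at 4.41 to 6.12 TPM in trogocytic against 1.84 to 3.82 TPM in non-trogocytic co-cultures, and did not pass (unadjusted p = 0.0971, limma adjusted p = 0.99975). Lgals2, another galectin gene, had 49.6, 13.9, 22.9 and 75.7 TPM in trogocytic libraries, against 0, 6.04, 28.1 and 28.8 TPM in non-trogocytic ones (unadjusted p = 0.0783, limma adjusted p = 0.99975). These groups overlapped.

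Of the goblet, Paneth and other secretory genes, 9 of 30 were tested, 3 with a fold change above 0 and 6 below, and 11 were listed at 0 in all libraries. Among those 11 were the secretory lineage factors Spdef, Atoh1 and Gfi1 and the gel-forming mucins Muc5ac, Muc5b and Muc6, which were named after their values were seen. Another 7 genes of the list were above 0 in all 8 libraries, among them Tff1 and Bcas1, also named after their values were seen. The trefoil gene Tff1 stood at 24.9 to 45.0 TPM in trogocytic and 9.96 to 51.6 TPM in non-trogocytic co-cultures. Bcas1 stood at 0.698 to 21.1 TPM in trogocytic and 1.28 to 23.9 TPM in non-trogocytic co-cultures. Wfdc2, a secreted protease inhibitor, averaged 188 ± 19.6 TPM in trogocytic and 172 ± 14.6 TPM in non-trogocytic co-cultures (SD, n = 4 each). Mmp7, the matrilysin of Paneth cells and colon tumours, had 25.9, 82.1, 75.8 and 60.5 TPM in trogocytic libraries, against 26.1, 131, 208 and 248.5 TPM in non-trogocytic ones (limma adjusted p = 0.99975). Like Agr2, Mmp7 was lowest in replicate 1 of each group. Lyz1, the Paneth cell lysozyme, averaged 33.4 ± 26.5 TPM in trogocytic and 69.4 ± 33.8 TPM in non-trogocytic co-cultures. Its near-identical neighbour Lyz2, a myeloid gene, stood at 1175 to 3846 TPM in trogocytic and 2636 to 12057 TPM in non-trogocytic co-cultures, so how reads were divided between them is uncertain.

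Of 26 genes of absorptive colonocytes and enterocytes, 13 were listed at 0 in all libraries. From this list 8 were tested, 4 with a fold change on each side of 0. Car2, a carbonic anhydrase of colonocytes, averaged 1159 ± 280 TPM in trogocytic and 1515 ± 587 TPM in non-trogocytic co-cultures (SD, n = 4 each). Dpp4, a brush border peptidase that T cells also carry, averaged 6.03 ± 1.19 TPM in trogocytic and 3.003 ± 1.78 TPM in non-trogocytic co-cultures (log2 fold change 0.92 ± 0.49, unadjusted p = 0.0854, limma adjusted p = 0.99975). Anpep, another brush border peptidase, averaged 1.16 ± 1.37 TPM in trogocytic and 3.78 ± 2.85 TPM in non-trogocytic co-cultures, with a fold change on the other side of 0 (-1.09 ± 0.59, unadjusted p = 0.0965, limma adjusted p = 0.99975). The groups overlapped for both. Anpep was highest, at 7.47 TPM, in non-trogocytic replicate 1, which also had the highest macrophage and monocyte sum (14293 TPM). Most of that sum was Lyz2, at 12057 TPM. The part of leukocytes in Dpp4 and Anpep was not tested. Ceacam1, a cell adhesion gene, averaged 126 ± 23.4 TPM in trogocytic and 130.2 ± 48.6 TPM in non-trogocytic co-cultures. Fabp1, a fatty acid binding protein of enterocytes and hepatocytes named after its values were seen, had 70.3 TPM in non-trogocytic replicate 3 and was listed at 0 elsewhere.

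Of 17 brush border genes, 9 were tested, 6 with a fold change above 0 and 3 below. Pls1, the plastin of microvilli, averaged 255 ± 54.1 TPM in trogocytic and 234 ± 46.7 TPM in non-trogocytic co-cultures (SD, n = 4 each). Mall, a membrane proteolipid gene, had 47.1, 56.3, 54.3 and 59.8 TPM in trogocytic libraries, against 23.6, 42.5, 21.5 and 20.7 TPM in non-trogocytic ones. The groups did not overlap, and the log2 fold change of 1.04 ± 0.29 did not pass (unadjusted p = 0.0045, limma adjusted p = 0.926). Eps8, which encodes an actin regulator of microvilli, had 32.8, 39.9, 45.6 and 36.0 TPM in trogocytic libraries, against 38.9, 73.6, 54.4 and 65.3 TPM in non-trogocytic ones. Non-trogocytic replicates 2 to 4 lay above every trogocytic library, and the fold change of -0.55 ± 0.27 did not pass (unadjusted p = 0.0646, limma adjusted p = 0.99975). Ezr, the gene of the membrane linker ezrin, averaged 62.4 ± 10.9 TPM in trogocytic and 54.7 ± 3.37 TPM in non-trogocytic co-cultures.

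Enteroendocrine and tuft genes were tested in 5 of 18 cases, 2 with a fold change above 0 and 3 below. Chgb, which encodes a secretory granule protein of endocrine cells, had 0.563, 4.32, 14.5 and 14.4 TPM in trogocytic libraries, against 0.384, 0.340, 1.90 and 0 TPM in non-trogocytic ones. Trogocytic replicates 2 to 4 lay above all non-trogocytic libraries, and the fold change of 2.13 ± 0.74 did not pass (unadjusted p = 0.0158, limma adjusted p = 0.950). Pyy, which encodes the gut hormone peptide YY, ranged from 18.3 to 168 TPM in trogocytic and from 0 to 58.4 TPM in non-trogocytic co-cultures. Alox5ap, a leukotriene synthesis gene that tuft cells share with leukocytes, averaged 111 ± 86.6 TPM in trogocytic and 212 ± 154 TPM in non-trogocytic co-cultures and was highest in replicate 1 of each group. Cpe, a carboxypeptidase that processes peptide hormones, averaged 49.8 ± 36.6 TPM in trogocytic and 58.9 ± 11.5 TPM in non-trogocytic co-cultures.

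Of 30 further transcription factors, 17 were tested, 8 with a fold change above 0 and 9 below. Sox9, a factor of crypt progenitors, averaged 162 ± 76.7 TPM in trogocytic and 154 ± 43.9 TPM in non-trogocytic co-cultures (SD, n = 4 each). Gata6, a zinc finger factor of gut epithelium, averaged 1.81 ± 1.32 TPM in trogocytic and 4.28 ± 2.16 TPM in non-trogocytic co-cultures (log2 fold change -0.94 ± 0.52, unadjusted p = 0.0950084, limma adjusted p = 0.99975). Klf6, a widely expressed relative of Klf5, averaged 188 ± 21.3 TPM in trogocytic and 151 ± 24.4 TPM in non-trogocytic co-cultures. The groups overlapped for each of these 3 factors.

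All 18 genes of protein folding in the endoplasmic reticulum were tested, 8 with a fold change above 0 and 10 below, and a median of -0.051. Canx, the chaperone calnexin, averaged 2639 ± 414 TPM in trogocytic and 2151 ± 458 TPM in non-trogocytic co-cultures (SD, n = 4 each). Hsp90b1, the chaperone GRP94, averaged 1050.45 ± 260.4 TPM in trogocytic and 981 ± 208 TPM in non-trogocytic co-cultures. P4hb, a protein disulfide isomerase, averaged 121 ± 17.7 TPM in trogocytic and 154 ± 26.5 TPM in non-trogocytic co-cultures (log2 fold change -0.35 ± 0.20, unadjusted p = 0.109, limma adjusted p = 0.99975). Hyou1, a chaperone induced by low oxygen, had 0, 2.52, 0 and 1.27 TPM in trogocytic libraries, against 4.68, 1.38, 1.90 and 1.57 TPM in non-trogocytic ones. The groups overlapped for all 4. Every cell of the mixture uses these genes, so their levels sum over all cell types.

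**Figure D4:**
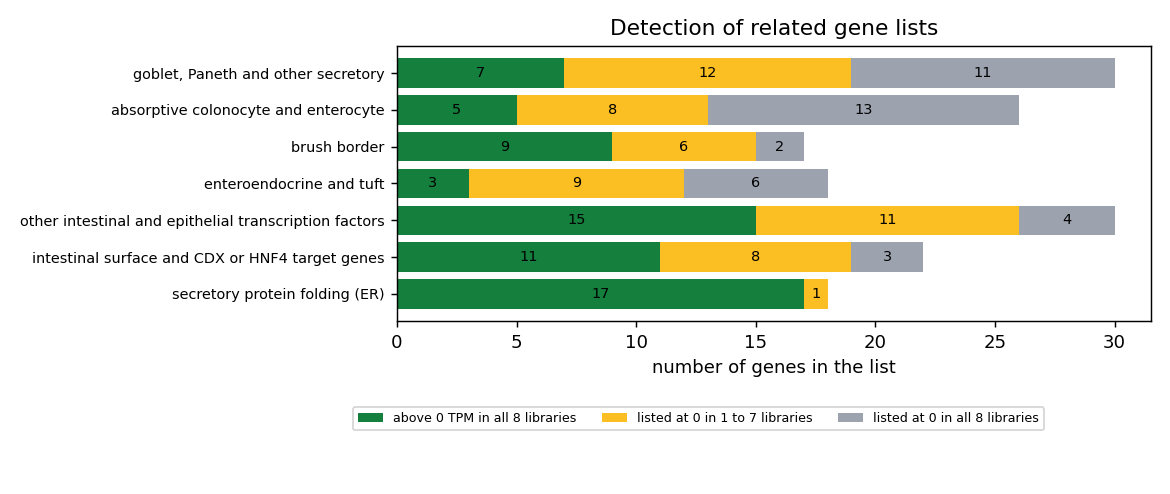
Number of genes in each of 7 lists that were above 0 TPM in all 8 libraries (green), listed at 0 in 1 to 7 libraries (yellow) or listed at 0 in all 8 (grey). Absorptive genes have the most at 0 in all 8, with 13 of 26, and goblet and Paneth genes follow with 11 of 30.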

How the data were processed

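Per the file headers, each library is 1 deposited gene abundance table of coverage, FPKM and TPM. The tools in the submitters' processing notes are HISAT2, StringTie 1.3.3 and DESeq version 2, with builds GRCm38 and mm10 and no roles. The sources used here give neither annotation release nor strand setting. The deposited TPM adds to 1 fixed total per library, and the deposited FPKM was an alternative unit. The deposited coverage (mean read depth) over FPKM gave the aligned bases.

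TPM was summed per gene ID. Genes at 1 TPM or more in at least 4 libraries entered limma 3.58.1 (R 4.3.3), fitted two-sided to log2(TPM + 1), which understates changes of low genes. The prior variance followed the mean, and p-values were adjusted by Benjamini-Hochberg over 11433 genes. Exact permutation tests used Python 3.11.15 and SciPy 1.17.1.

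The genes, lists and tests were chosen with earlier results of these data known. All 10 genes were named; from each list, names came from its 2 smallest p-values and its 2 highest means among tested genes, and for the 3 highest genes the 3 most correlated. Alternatives covered unit, pseudocount, filter, scaling, variance model, replicate block and libraries left out. One gene that the naming rule selects is not reported here.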

Additional observations from a re-analysis of the deposited data

Results flagged for a closer look

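In non-trogocytic co-cultures, Tff3 stood at 5.34 TPM in replicate 3 and was listed at 0 in the other 3, so that 1 library lay far from the rest of its group. That library also held all 8 hepatocyte markers. The secretory genes Spink4 (50.5 TPM), Reg4 (52.0 TPM) and Bcas1 (23.9 TPM), named after their values were seen, were highest there too. Tff1, Mmp7 and Wfdc2 were highest in other libraries. Whether its Tff3 came with the hepatocyte markers or with secretory genes was not tested. Hnf4a stood at 1.83 TPM in non-trogocytic replicate 4 and was listed at 0 in the other 3 libraries of its group. These were 2 of 19 groups of 4 libraries checked for a sample far from the others by Dixon's criterion. With 3 libraries at 0, any value above 0 in the fourth would be marked, so the share of about 5% that chance marks does not apply to them.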

How the results depend on the processing

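The count of 0 called among the genes described was the same under every alternative run, including those that left out 1 library and, chosen after seeing the data, the first replicate of both groups. Over all genes, 6 were called in the fit as reported. It came to 3 when the pseudocount was 5, to 1 when low genes stayed in, to 1 when the prior variance did not follow the mean, and to 0 under scaling to epithelial genes. It was 0 to 3 with 1 library left out, and 0 without the first replicates, and the cause was not tested. With the replicate number as a block it was 0, with or without median-of-ratios scaling. Same-numbered libraries had correlations of 0.24, 0.0054, 0.062 and -0.093 between their deviations from the group means, so the numbers were not taken to pair them. The 0.24 of the first replicates was the highest of any trogocytic library with any non-trogocytic one. With the block, the SE of the log2 fold change was 0.58 for Muc1, against 1.06 in the fit as reported. It was 0.38 against 0.63 for Agr2, and 0.51 against 0.45 for Vil1.

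Leaving out 1 library moved the log2 fold change between -0.75 and 0.40 for Agr2, -0.46 and 0.30 for Klf5, -0.11 and 0.65 for Cdx2, -1.52 and -0.89 for Elf3, -2.13 and -0.57 for Muc1, and -0.97 and -0.57 for Vil1. All other alternatives kept the sign of these 6. With 1 library left out, the unadjusted limma p went below 0.05 for Elf3 and Muc1 only. For Elf3 it ran from 0.0279, without non-trogocytic replicate 3, to 0.191 (limma adjusted p at least 0.847). For Muc1 it ran from 0.0439, without non-trogocytic replicate 1, to 0.602 (limma adjusted p at least 0.792). The epithelial index difference ran from -0.093 to 0.33 with 1 library left out and was -0.060 without the first replicates. A 0 in 1 or more libraries was more frequent at low levels. It occurred in 29.5% of tested genes averaging 2 to 5 TPM, and in 13.1% of those averaging 5 to 20 TPM. Muc1 lay in the second range. It was listed at 0 in non-trogocytic replicate 1, the library with the most aligned bases (1.84 Gb). It was also at 0 in trogocytic replicate 1, which had the fewest (1.39 Gb). The part of depth in these zeros was not tested. Hnf4a and Tff3 averaged less than either range.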

Other observations

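Non-trogocytic replicate 3 stood apart by its single-library genes. It had 58 genes at 5 TPM or more that were listed at 0 in the other 7 libraries, summing to 995 TPM, and the highest were the liver genes Apoa2, Fabp1, Mup3, Apoa1, Fgg and Alb. Each of the other 7 libraries had 10 to 53 such genes, which summed to 60.7 to 409 TPM. Of 2 other secretory genes of the gut, named after their values were seen, Reg4 stood at 3.82 to 25.9 TPM in trogocytic and 0 to 52.0 TPM in non-trogocytic co-cultures, and Spink4 at 0 to 11.8 TPM in trogocytic and 0 to 50.5 TPM in non-trogocytic co-cultures. Both were highest in non-trogocytic replicate 3.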
